A study of Homo sapiens with 6 samples.

Results

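Integrins are cell surface receptors for the extracellular matrix, and laminins are large matrix glycoproteins that many integrins bind. The gene table held 38 protein-coding genes of these families among 46427 genes, and each was taken by its symbol and not by its measured value. They were 18 integrin alpha genes, 8 integrin beta genes, 5 laminin alpha genes, 4 laminin beta genes and 3 laminin gamma genes. The families themselves were chosen with earlier results of these data known. The 6 libraries were made from cell preparations of MDA-MB-231, a human line of metastatic breast cancer, labelled as genotype WT and grown in low glucose DMEM. Among them, 3 preparations had received control-siRNA and 3 had received TAZ-siRNA, which is directed against WWTR1, the gene that encodes the transcriptional coactivator TAZ. The labels name DharmaFECT4 as the transfection reagent, 1 siGENOME product against WWTR1, and detachment of the cells with trypsin/EDTA before extraction. All 6 libraries thus come from 1 cell line and 1 knockdown reagent, and the time between transfection and extraction is not given in the labels. WWTR1 stood at 192, 189.7 and 190.0 CPM (counts relative to the TMM-scaled library size) in the control-siRNA libraries and at 17.3, 17.0 and 15.1 CPM in the TAZ-siRNA libraries, which is 8.65% of the control level (log2 fold change -3.53, SE 0.061, adjusted p = 2.5e-10, quasi-likelihood test in edgeR).

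An integrin is a heterodimer of an alpha and a beta subunit. The alpha subunit largely sets the ligand, and the tail of the beta subunit recruits talin, kindlin and the other proteins that join the receptor to actin or, for integrin β4, to keratin filaments. A laminin is a heterotrimer of an alpha, a beta and a gamma chain and is named by its chain numbers, so that laminin-511 holds the chains of LAMA5, LAMB1 and LAMC1. Many laminins, though not all, polymerise in the basement membrane, where epithelial cells hold laminins mainly through integrins α3β1, α6β1 and α6β4.

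More integrin and laminin genes rose than fell after TAZ knockdown, and most changes were modest. Of the 38 genes, 30 passed the filter on low counts and 8 did not. Among the 30, 12 rose and 2 fell (adjusted p under 0.05, Benjamini-Hochberg over all genes tested), whereas 22.1% of the 16966 genes tested were called over both directions, 11.9% as higher and 10.2% as lower. The median log2 fold change of the 30 was 0.21, against -0.01 for all genes tested. Integrin genes accounted for 8 rises and no fall among 19 tested, and laminin genes for 4 rises and 2 falls among 11 tested. The 3 libraries of each group did not overlap for 19 of the 30, and this was so for 39.6% of all genes tested. The changes called ranged from -1.19 to 1.52 on the log2 scale, but apart from ITGB8 and LAMA1, which were scarce, all called changes lay between -0.19 and 0.51. A change in bulk RNA cannot tell fewer expressing cells from less RNA per cell.

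The libraries held 48307548 to 71749634 estimated counts, so that 3 counts corresponded to 0.0418 to 0.0621 CPM. TAZ-siRNA replicate 3 lay farthest from the other libraries of its group, at a mean root mean square log2 distance of 0.21 against 0.12 to 0.183 for the other 5. It was the lowest of the TAZ-siRNA libraries for 9 of the 12 risen genes, and for 63.8% of all 2012 genes called higher. Without it 17 of the 30 genes were called, and without any other library 8 to 12 were. VIM, CD44, CAV1, EGFR, KRT18 and KRT8, which mark this line, stood between 112 and 3922.5 TPM, a level scaled by transcript length. Of 6 luminal markers, ESR1 and PGR reached at most 0.0295 TPM and CDH1 at most 0.252 TPM. The luminal markers ERBB2, GATA3 and EPCAM stood at 19.7 to 30.2, 4.61 to 7.62 and 1.14 to 2.25 TPM. The labels call the cells epithelial. Of the line's markers, CAV1 and EGFR fell by 0.60 and 0.21 on the log2 scale (adjusted p = 9.5e-05 and 0.028). The leukocyte markers PTPRC, CD3E and SPI1 and the platelet markers PPBP and GP9 were at 0 in every library. The 6 leukocyte markers summed to 1.23 to 1.43 TPM with control-siRNA and 1.64 to 2.16 TPM with TAZ-siRNA, and neither of the 2 tested was called. The 5 platelet markers summed to at most 0.987 TPM and the 4 endothelial markers to 2.35 to 4.03 TPM over all libraries, with none called. The 6 luminal markers summed to 27.6 to 31.1 and 27.0 to 36.8 TPM, and of these GATA3 fell by 0.48 on the log2 scale (adjusted p = 0.0081). ERBB2 and EPCAM had log2 fold changes of 0.24 (adjusted p = 0.1) and -0.38 (adjusted p = 0.26) and were not called.

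**Figure D1:**
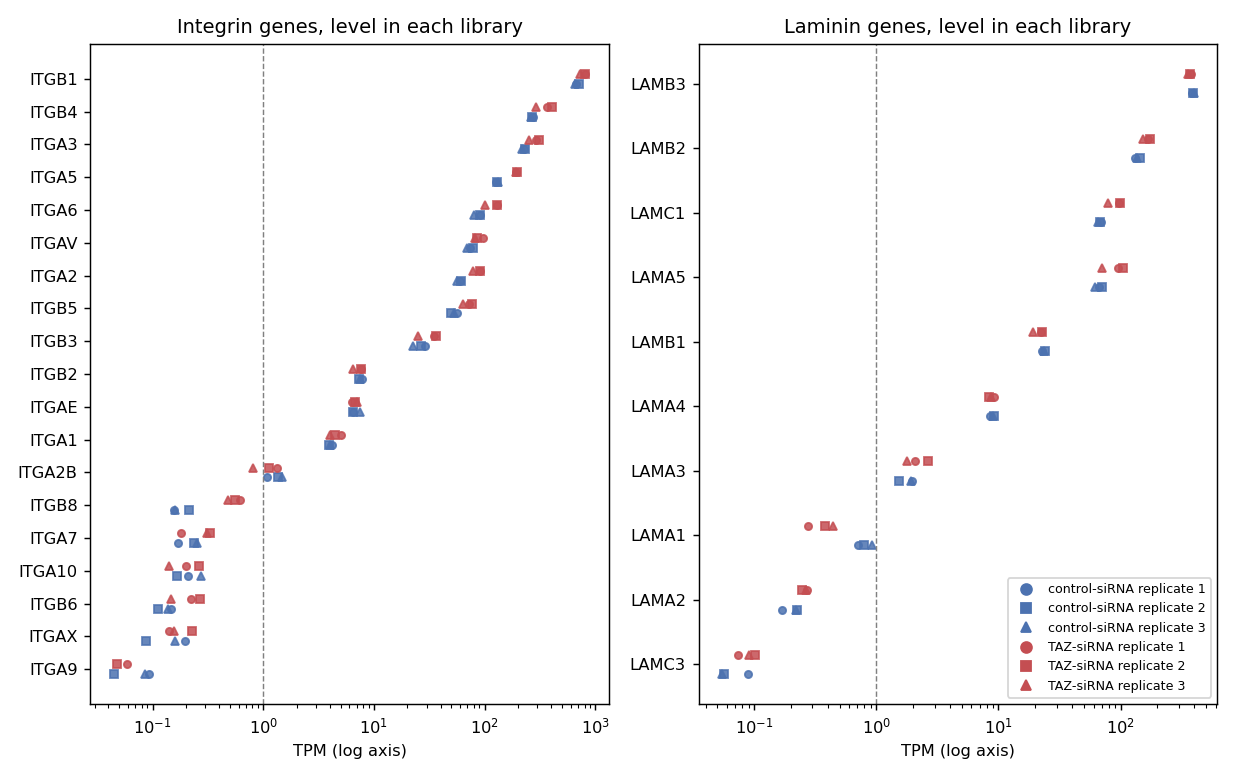
Level of the named integrin genes (left) and laminin genes (right) in each library, in TPM on a log axis. Blue symbols are control-siRNA and red symbols TAZ-siRNA libraries, with 1 symbol shape per replicate number, and the dashed line marks 1 TPM. The red symbols lie to the right of the blue ones for ITGA2, ITGA5, ITGA6, ITGB8 and LAMC1 and to the left for LAMA1, and the ITGA9 value of 0 in TAZ-siRNA replicate 3 cannot be drawn on this axis.

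TAZ does not bind DNA itself and reaches genes chiefly through TEAD factors, whose core motif is GGAATG, often beside AP-1 sites, whose core is TGANTCA. RefSeq promoters (GRCh38.p14) were found for 26 of the 38 genes, at 33 starts. In the 250 bases before the start, on either strand, GGAATG was found at 4 of the 33 starts (12.1%) against 11.9% of 35116 starts of all genes, and TGANTCA at 2 of 33 (6.06%) against 6.57%. GGAATG was present before starts of ITGA5, ITGB1, ITGA10 and LAMA2, and TGANTCA before starts of LAMA3 and LAMB3. Of the 10 called genes with a promoter in the table, ITGA5 was the 1 that held either motif. The stretches from 200 to 51 bases before the start are printed 5′ to 3′ on the strand of the gene, with motif matches in capitals, for the main alpha and beta subunits of the fibronectin receptor, for ITGB8 with the largest rise, and for the laminin-332 chains with the AP-1 motif. LAMA3, LAMB3 and ITGB1 did not pass the test below.
ITGA5 (chr12:54419317-54419466, minus strand): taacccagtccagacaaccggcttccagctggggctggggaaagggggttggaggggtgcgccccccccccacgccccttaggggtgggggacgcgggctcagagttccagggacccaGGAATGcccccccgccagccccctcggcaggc
ITGB1 (chr10:32958281-32958430, minus strand): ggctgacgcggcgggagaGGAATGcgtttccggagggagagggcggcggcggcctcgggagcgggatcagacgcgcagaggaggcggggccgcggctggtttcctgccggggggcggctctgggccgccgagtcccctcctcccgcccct
ITGB8 (chr7:20330700-20330849, plus strand): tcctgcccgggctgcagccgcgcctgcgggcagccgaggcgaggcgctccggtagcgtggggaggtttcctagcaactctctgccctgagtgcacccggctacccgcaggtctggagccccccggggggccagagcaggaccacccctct
LAMA3 (chr18:23872820-23872969, plus strand): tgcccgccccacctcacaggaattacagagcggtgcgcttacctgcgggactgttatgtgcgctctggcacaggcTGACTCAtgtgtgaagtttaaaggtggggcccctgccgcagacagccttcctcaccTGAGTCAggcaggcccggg
LAMB3 (chr1:209651425-209651574, minus strand): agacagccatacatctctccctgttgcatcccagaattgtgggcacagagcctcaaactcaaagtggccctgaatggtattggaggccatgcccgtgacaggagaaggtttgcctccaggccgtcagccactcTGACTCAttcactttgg
In ITGA5 the motif began 82 bases before the start, and in ITGB1 182 bases before it. LAMA3 held the AP-1 motif at 125 and at 69 bases before the start, which lies inside the span of the gene, and LAMB3 held it at 67 bases. ITGB8 held neither motif in its window. These are matches of letters, and binding was not measured.

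ITGA3, ITGA6 and their partners are the laminin receptors. ITGA3, the alpha subunit of the epithelial laminin-332 and laminin-511 receptor, was the most abundant alpha gene. It stood at 506, 509.5 and 500.0 CPM in the control-siRNA libraries and at 609, 649.9 and 574 CPM in the TAZ-siRNA libraries. Every TAZ-siRNA library was above every control library, and ITGA3 rose by a log2 fold change of 0.27 (SE 0.061, 95% interval 0.14 to 0.41, adjusted p = 0.0097), with adjusted p = 0.054 without control-siRNA replicate 2. ITGA6, whose product pairs with β1 or β4, stood at 239, 238 and 218 CPM with control-siRNA and at 320.6, 324 and 274 CPM with TAZ-siRNA. The groups did not overlap, replicate 3 was the lowest library in each group, and ITGA6 rose by 0.40 on the log2 scale (SE 0.072, adjusted p = 0.0034). ITGA7, the muscle laminin receptor subunit, was scarce at 0.343 to 0.662 CPM over the 6 libraries, and its log2 fold change of 0.24 had a 95% interval of -0.48 to 0.96.

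ITGB4, whose long cytoplasmic tail anchors hemidesmosomes, showed the same pattern with more spread. With control-siRNA it stood at 704, 703 and 714 CPM, and with TAZ-siRNA at 898, 1004 and 782 CPM. The control libraries lay close together (SD 5.87 CPM), whereas the TAZ-siRNA libraries ranged widely (SD 111.2 CPM) but stayed above them. The log2 fold change was 0.34 (SE 0.083, adjusted p = 0.016), and the adjusted p was 0.056 to 0.075 with any 1 control-siRNA library left out and 0.059 without TAZ-siRNA replicate 1.

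The collagen receptor subunit ITGA2 rose by 0.50 on the log2 scale (SE 0.053, adjusted p = 0.00024). Its libraries stood at 212, 219 and 209.6 CPM with control-siRNA and at 309, 308 and 286 CPM with TAZ-siRNA, and the gap between the groups was wide against the spread within them. ITGA1, the other collagen receptor subunit above 1 TPM, stood at 20.4, 19.4 and 20.4 CPM against 23.3, 20.8 and 20 CPM. These groups overlapped, and the log2 fold change was 0.09 with a 95% interval of -0.07 to 0.25. ITGA1 shares its span with PELO, which had 59.2 CPM, and whether the counting used strand is not given in the sources used here. ITGA10 lay at 0.34 to 0.7 CPM, with a log2 fold change of -0.16 (SE 0.32), and ITGA11 had at most 10 counts in any library and was not tested.

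ITGA5 pairs only with β1 and forms the classical fibronectin receptor, which binds the RGD motif. It stood at 247, 252 and 263 CPM in the control-siRNA libraries and at 352, 359 and 378 CPM in the TAZ-siRNA libraries. No library lay between the groups, and the rise of 0.51 on the log2 scale (SE 0.055, 95% interval 0.39 to 0.64, adjusted p = 0.00024) was the largest among the alpha genes. ITGAV, the alpha subunit shared by the other RGD receptors, stood at 234, 249.5 and 230.5 CPM against 292, 260.4 and 270.1 CPM. Its groups came close, and its log2 fold change of 0.20 (SE 0.06, adjusted p = 0.033) passed the test less firmly. The adjusted p was 0.12, 0.066 and 0.13 without control-siRNA replicate 1, 2 or 3 and 0.14 without TAZ-siRNA replicate 1. ITGA5 and ITGAV therefore differed in how their calls held when libraries were left out, and the difference between their changes was not tested.

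Among the beta subunits that pair with αV, ITGB5 stood at 93.2, 91.8 and 90.5 CPM with control-siRNA and at 120.5, 126 and 110.0 CPM with TAZ-siRNA. All TAZ-siRNA libraries were higher, by a log2 fold change of 0.37 (SE 0.056, adjusted p = 0.0014). ITGB8, whose heterodimer with αV is known for activating latent TGF-β, had the largest rise of the family but a low level. It stood at 0.66, 0.916 and 0.7 CPM against 2.39, 2.23 and 1.93 CPM, or 34 to 57 counts against 108 to 174 counts. The log2 fold change was 1.52 (SE 0.19, 95% interval 1.10 to 1.95, adjusted p = 0.00054), and it was called with each library left out in turn. ITGB6, the epithelial subunit with the same known function, stood at 0.315, 0.241 and 0.309 CPM against 0.453, 0.547 and 0.322 CPM, with a log2 fold change of 0.61 (95% interval -0.11 to 1.32, adjusted p = 0.21). ITGB3 stood at 78.4, 71.4 and 63.2 CPM against 89.7, 94.4 and 68.9 CPM. Its groups overlapped through TAZ-siRNA replicate 3, and its log2 fold change was 0.25 (SE 0.12, adjusted p = 0.2, and adjusted p = 0.0035 without that library).

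ITGB1, the common partner of most alpha subunits, was the most abundant integrin gene and did not pass the test. It stood at 1138, 1221 and 1158 CPM with control-siRNA and at 1310.4, 1306 and 1268 CPM with TAZ-siRNA. The groups did not overlap, and the log2 fold change was 0.14 (SE 0.058, 95% interval 0.01 to 0.27, adjusted p = 0.1). DESeq2 gave an adjusted p of 0.028, and edgeR gave 0.024 without TAZ-siRNA replicate 3.

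Apart from ITGB2, ITGAE and ITGB3, the genes of leukocyte and platelet integrins were scarce or not detectable. ITGB2, the leukocyte beta subunit, stood at 8.63 to 10.3 CPM over the 6 libraries, with a log2 fold change of -0.13 (SE 0.081, adjusted p = 0.29), while its alpha partners ITGAL, ITGAM, ITGAD and ITGAX did not exceed 0.466 CPM. ITGAE stood at 11.5 to 14.8 CPM (log2 fold change -0.10, adjusted p = 0.48), and it overlaps NCBP3, at 68.3 CPM, and HASPIN, at 18.1 CPM. ITGA2B, the platelet subunit, stood at 1.29 to 2.37 CPM, with a log2 fold change of -0.32 (SE 0.2). ITGA9 had 10 to 23 counts in the control-siRNA libraries and 15, 8 and 0 counts in the TAZ-siRNA libraries, and its interval of -2.63 to 0.40 on the log2 scale included no change. ITGA4 had 0 counts in all 6 libraries, which allows at most 0.0418 to 0.0621 CPM by counting error alone. The others not tested, ITGA8, ITGAD, ITGAL, ITGAM, ITGB7, ITGA11 and LAMB4, had 0 to 10 counts per library.

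Positions on GRCh38 are given here as in the deposited tables. ITGA1 (chr5:52787916-52959209) and ITGA2 (chr5:52989352-53094779) follow each other on chromosome 5, and of these ITGA2 was called. ITGA3 (chr17:50056065-50090481), ITGB4 (chr17:75721339-75757819) and ITGB3 (chr17:47253827-47313743) lie apart on chromosome 17. ITGA5 is at chr12:54395261-54419266, ITGAV at chr2:186590056-186680902, ITGA6 at chr2:172427336-172506459, ITGB1 at chr10:32900318-32958230, ITGB5 at chr3:124761948-124901411 and ITGB8 at chr7:20329819-20415754. Among laminins, LAMC1 (chr1:183023420-183145592), which rose, and LAMB3 (chr1:209614870-209652467) lie apart on chromosome 1. LAMB1 is at chr7:107923799-108003176, LAMB2 at chr3:49121114-49133066, LAMA5 at chr20:62309060-62367318 and LAMA1 at chr18:6941742-7117797.

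**Figure D2:**
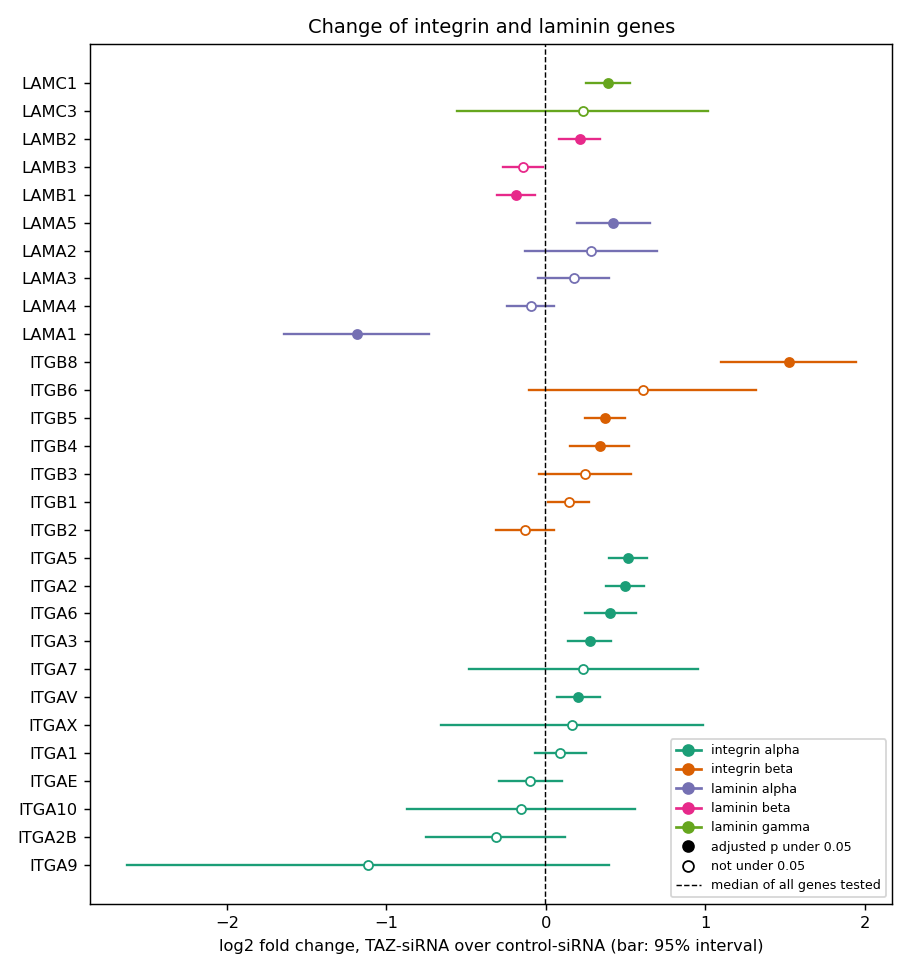
Log2 fold change of the named integrin and laminin genes, TAZ-siRNA over control-siRNA, with its 95% interval (bar), coloured by chain class. Filled points passed an adjusted p of 0.05 and the dashed line is the median of all genes tested (-0.01). All 8 filled integrin points lie to the right of the line, and LAMA1 and LAMB1 are the 2 filled points to its left.

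Laminin chains moved in both directions. LAMA5, the alpha chain of laminin-511 and laminin-521, was the leading laminin alpha gene. It stood at 343, 349 and 319 CPM in the control-siRNA libraries and at 465, 516 and 375 CPM in the TAZ-siRNA libraries. TAZ-siRNA replicate 3 came nearest to the controls, the groups did not overlap, and LAMA5 rose by 0.42 on the log2 scale (SE 0.1, adjusted p = 0.016, and 0.068 and 0.069 without control-siRNA replicate 3 or TAZ-siRNA replicate 1). LAMA1, the alpha chain of embryonic laminin-111, went the other way. It stood at 3.1, 3.49 and 4.2 CPM against 1.15, 1.6 and 2.01 CPM, or 204 to 217 counts against 79 to 112 counts. No TAZ-siRNA library reached the lowest control library, and the mean change was to 43.9% of the control level (log2 fold change -1.19, SE 0.21, adjusted p = 0.0029), and the call held with each library left out.

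The other alpha chains did not pass the test. LAMA3, the alpha chain of laminin-332, stood at 8.82, 7.39 and 9.22 CPM against 9.55, 10.1 and 8.99 CPM, with a log2 fold change of 0.17 (95% interval -0.05 to 0.40). LAMA4, found in endothelial and mesenchymal basement membranes, stood at 26.0, 27.9 and 28.2 CPM against 26.5, 23.7 and 26.6 CPM, with a log2 fold change of -0.10 (95% interval -0.24 to 0.05). Both sets of groups overlapped. LAMA2, the muscle and nerve chain, stood at 0.96, 1.27 and 1.3 CPM against 1.44, 1.32 and 1.52 CPM, with a log2 fold change of 0.29 (adjusted p = 0.31).

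The beta chains split. LAMB2 stood at 341, 370.5 and 368 CPM with control-siRNA and at 411.5, 433 and 406 CPM with TAZ-siRNA. It rose by 0.21 on the log2 scale (SE 0.058, adjusted p = 0.025), and the adjusted p was 0.063 to 0.11 with any 1 control-siRNA library left out, 0.07 without TAZ-siRNA replicate 1 and 0.067 without replicate 2. With a correction of the counts for GC content and length, the change of LAMB2 was 0.11 (adjusted p = 0.13). LAMB1, the chain it replaces in laminin-411 and laminin-511 to give laminin-421 and laminin-521, stood at 63.3, 66.2 and 67.8 CPM against 57.9, 60.3 and 55.1 CPM. LAMB1 fell by 0.19 on the log2 scale (SE 0.054, adjusted p = 0.032), and the adjusted p was 0.058, 0.12 and 0.12 without control-siRNA replicate 1, 2 or 3 and 0.093 without TAZ-siRNA replicate 1. With the GC and length correction the change of LAMB1 was -0.30 (adjusted p = 0.001), and limma on FPKM gave it an adjusted p of 0.13. LAMB3, the beta chain particular to laminin-332, was the most abundant laminin gene, at 711, 724 and 771 CPM against 660.4, 659.6 and 676 CPM. The TAZ-siRNA libraries were all below the controls, with a log2 fold change of -0.14 (SE 0.057, adjusted p = 0.098, and 0.037 without TAZ-siRNA replicate 3). LAMB3 was also called by DESeq2 (adjusted p = 0.034) and with the GC and length correction (-0.21, adjusted p = 0.017).

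Of the gamma chains, LAMC1, which most laminins contain, stood at 248, 246 and 243 CPM with control-siRNA and at 333, 339 and 293 CPM with TAZ-siRNA. It rose by 0.39 on the log2 scale (SE 0.062, adjusted p = 0.0019) and was called with each library left out. Each of the 3 TAZ-siRNA libraries was above every control library. LAMC3 stood at 0.206 to 0.33 CPM, with a log2 fold change of 0.23 (SE 0.36).

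Levels of different subunits can be set beside each other in TPM, which is scaled by length. A receptor was counted as expressed where both subunits had a mean of at least 1 TPM in either group, and 10 of the 24 human heterodimers met this. They were the collagen receptors α1β1 and α2β1, the laminin receptors α3β1, α6β1 and α6β4, and the RGD receptors α5β1, αVβ1, αVβ3, αVβ5 and αIIbβ3. None of the 6 leukocyte heterodimers did, and αVβ8 did not, since ITGB8 was at 0.177 ± 0.0338 TPM (SD, n = 3) with control-siRNA and 0.551 ± 0.0673 TPM (SD, n = 3) with TAZ-siRNA. At a minimum of 0.5 TPM it would be counted as the eleventh. At a minimum of 2 TPM 9 were counted, without αIIbβ3, and with FPKM in place of TPM 9 were also counted.

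In 8 of the 10 expressed receptors the alpha subunit was the lower in every library. ITGB1, at 681 ± 33.6 TPM with control-siRNA and 783 ± 48.9 TPM with TAZ-siRNA, was well above each of its alpha partners, of which ITGA3 was the highest at 226 ± 7.2 and 285 ± 28.5 TPM (SD, n = 3 each). The beta subunit was the lower in αVβ3 and αVβ5, with ITGB3 at 26.0 ± 3.31 and 32.2 ± 6.42 TPM and ITGB5 at 53.0 ± 2.98 and 71.4 ± 6.26 TPM against ITGAV at 73.5 ± 4.4 and 88.0 ± 7.56 TPM.

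The balance of alpha to beta was set beside the control for each receptor. On the log2 scale the ratio of alpha to beta TPM was higher with TAZ-siRNA by 0.37 for α5β1, by 0.35 for α2β1, by 0.26 for α6β1 and by 0.13 for α3β1. In these 4 the groups did not overlap, and the exact permutation test gave p = 0.1, the smallest that 3 against 3 libraries allow (two-sided, adjusted p = 0.25 over the 10 receptors). All 4 ratios have ITGB1 as their denominator, so they are not separate results. Of the single genes tested, 39.6% did not overlap, and the share for ratios of other gene pairs was not computed. For α6β4, where both subunits rose, the difference was 0.07 and the groups overlapped (p = 0.4, exact permutation test). The other 5 ratios also overlapped between the groups.

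**Figure D3:**
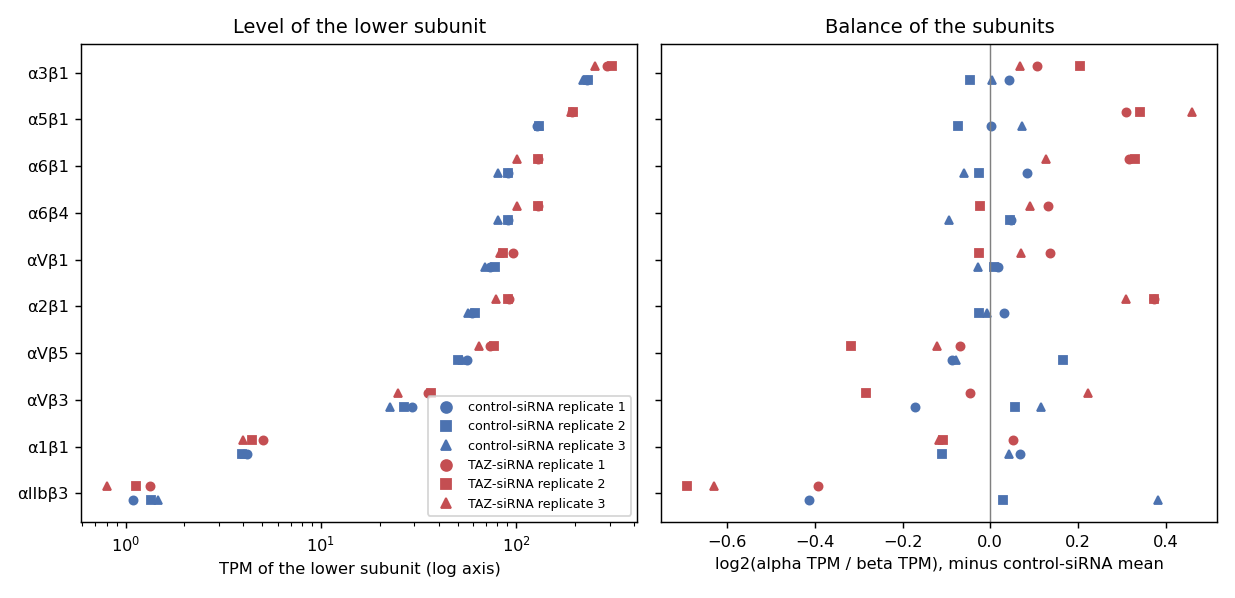
Left, level of the lower subunit of each of the 10 expressed integrin heterodimers in each library, in TPM on a log axis. Right, log2 ratio of alpha to beta TPM minus its mean in the control-siRNA libraries. Blue symbols are control-siRNA and red symbols TAZ-siRNA libraries, and the ratios of α2β1, α5β1, α6β1 and α3β1 lie above all control values with TAZ-siRNA.

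Summed over their class, integrin alpha RNA was at 589 ± 17.9 TPM with control-siRNA and 785 ± 58.3 TPM with TAZ-siRNA, and integrin beta RNA at 1038 ± 36.0 and 1251 ± 117 TPM (SD, n = 3 each). Laminin gamma RNA was at 87.2 ± 2.11 and 116 ± 12.2 TPM. In these 3 classes no library of one group reached the other, whereas laminin alpha RNA, at 77.7 ± 4.22 and 101 ± 17.8 TPM, overlapped, and laminin beta RNA was at 550.1 ± 12.01 and 552 ± 23.5 TPM (p = 1, exact permutation test, two-sided).

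Within the laminin beta class, the share of LAMB3 was 71.2%, 69.9% and 71.3% with control-siRNA and 66.3%, 65.1% and 67.3% with TAZ-siRNA. The share of LAMB2 was 24.6%, 25.8% and 24.5% against 29.8%, 30.9% and 29.1%, so that the near-equal sum held a lower share of LAMB3 and a higher share of LAMB2. LAMB1 made up 4.25 ± 0.0566% and 3.86 ± 0.203% (SD, n = 3). Among laminin alpha genes LAMA5 made up 84.8 ± 1.16% and 88.4 ± 1.95%, and LAMA4 11.5 ± 0.708% and 8.84 ± 1.77%. Among integrin alpha genes ITGA5 made up 22.1 ± 0.847% and 24.6 ± 1.67%, ITGA2 10.04 ± 0.116% and 11.05 ± 0.178%, and ITGA3 38.5 ± 0.191% and 36.2 ± 1.21%. Of the 18 genes with a share of at least 1% of their class, 11 did not overlap between the groups, each with p = 0.1 (exact permutation test, adjusted p = 0.164). Shares within a class depend on each other, since a higher share of 1 gene lowers those of the rest. Levels of single genes did not overlap for 39.6% of all genes tested, and no such figure was computed for shares in other gene classes. The shares of ITGB1, 65.6 ± 1.15% and 62.7 ± 2.32%, and of ITGB4, 26.0 ± 0.656% and 28.4 ± 2.07%, overlapped.

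**Figure D4:**
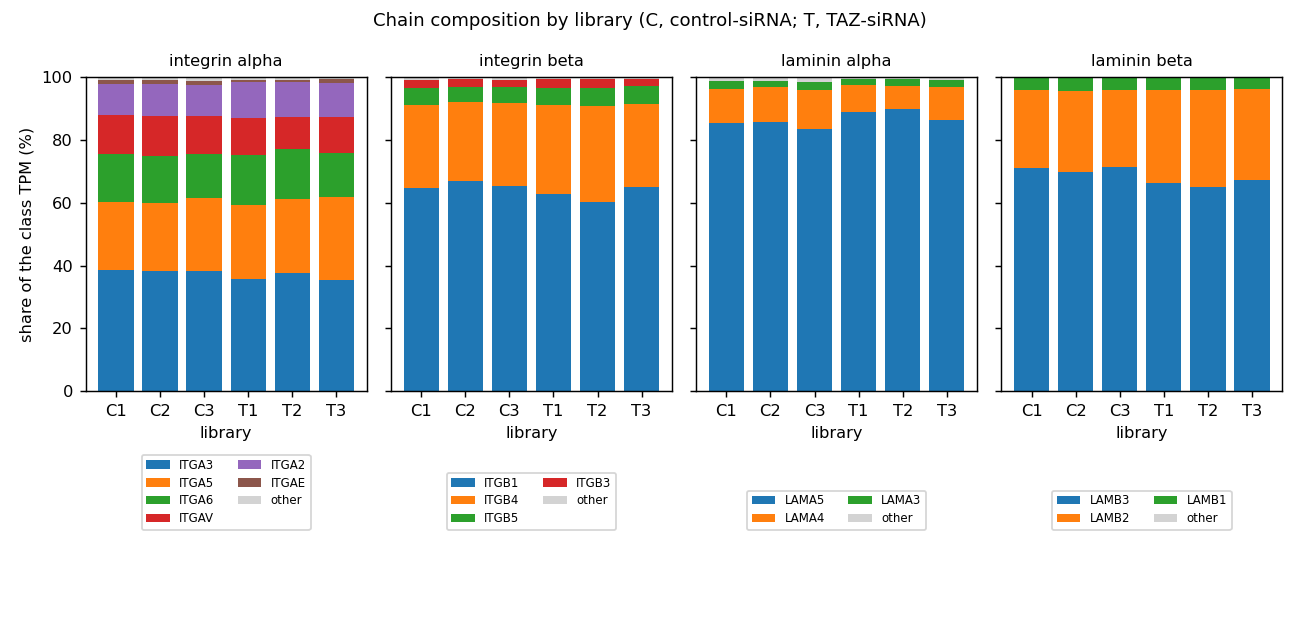
Share of each gene in the summed TPM of its chain class, in percent, for the integrin alpha and beta and the laminin alpha and beta genes in each library (C1 to C3 control-siRNA, T1 to T3 TAZ-siRNA). The boundary between LAMB3 and LAMB2 lies lower in the 3 TAZ-siRNA bars than in the 3 control bars, and the LAMA5 segment is taller.

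Of 13 laminin trimers, 7 had all chains at a mean of at least 1 TPM in either group. For laminin-511 the lowest chain was LAMB1, at 23.4 ± 0.611 TPM with control-siRNA and 21.4 ± 2.003 TPM with TAZ-siRNA, whereas for laminin-521 the lowest was LAMA5 or LAMC1, at 65.3 ± 3.59 and 87.9 ± 15.3 TPM (SD, n = 3 each). Laminin-411 and laminin-421 were limited by LAMA4, at 8.93 ± 0.313 and 8.75 ± 0.401 TPM. Laminin-311 and laminin-321 were limited by LAMA3, at 1.8 ± 0.231 and 2.17 ± 0.424 TPM. The chain that LAMA3 joins in laminin-332, LAMB3, stood at 389 ± 8.08 and 366 ± 10.9 TPM. With FPKM in place of TPM 4 trimers met the minimum. Trimers with LAMA1 or LAMA2 did not meet it. Whether the chains assembled was not measured.

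Transcript models were compared by their share of the gene's TPM, for the 18 genes with a mean of at least 5 TPM. Of 33 transcripts with a share of at least 10%, 7 did not overlap between the groups, against 11.2% of the 20241 such transcripts of all genes. LAMA5 was assigned mainly to NM_005560, with 89.0%, 49.1% and 73.5% of it with control-siRNA and 92.3%, 93.3% and 97.1% with TAZ-siRNA, and the control shares were widely spread. LAMB3 was assigned to NM_000228 for 59.6 ± 0.799% with control-siRNA and 53.2 ± 4.32% with TAZ-siRNA, and ITGB4 to NM_000213 for 16.1 ± 1.31% and 10.8 ± 1.82% (SD, n = 3 each). ITGB1 was assigned to NM_002211 for 93.6 ± 3.47% and 97.3 ± 0.831%. The leading model of LAMB1 was a non-coding one, XR_001744756, with 61.7 ± 3.62% and 55.7 ± 4.42%. For ITGA6, NM_000210 had 40.1 to 81.6% over the 6 libraries, a spread larger than the difference between the groups. The exact permutation test cannot go below p = 0.1, and the adjusted p of the 7 was 0.471.

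The matched ligands outside the laminin family moved in different directions. Of 43 ligand genes, 25 passed the filter, of which 9 rose and 6 fell (60.0% called, against 22.1% of all genes tested, median log2 fold change 0.10). This list was drawn up with earlier results of these data known, so the 60.0% may reflect the choice of genes. For the collagen receptors, COL5A1 stood at 110.4, 118 and 110.0 CPM with control-siRNA and at 209, 233 and 177 CPM with TAZ-siRNA (log2 fold change 0.87, adjusted p = 0.00024). COL6A1 (0.51), COL6A3 (0.43) and COL1A1 (0.42) were also higher on the log2 scale, with adjusted p = 0.00017, 0.014 and 0.007. COL6A3 lost its call without control-siRNA replicate 1 or 3 (adjusted p = 0.07 and 0.051). COL6A2, the partner chain of COL6A1 and COL6A3, was not called, with overlapping groups and a change of 0.07 (adjusted p = 0.3). COL1A1 averaged 2.66 TPM with control-siRNA and 3.81 TPM with TAZ-siRNA. Its partner chain COL1A2 had 2 counts in TAZ-siRNA replicate 2, 0 in every other library, and was not tested. These partner chains were named after their values were seen. Whether type I or type VI collagen rose was not measured. The 4 fibroblast markers summed to 5.12 to 5.73 TPM with control-siRNA and 7.14 to 7.75 TPM with TAZ-siRNA, of which PDGFRB made up 5.03 to 7.64 TPM and rose by 0.44 on the log2 scale (adjusted p = 0.0049). DCN was at 0 in every library and LUM reached at most 0.0446 TPM, and the part of these markers in the collagen values was not tested.

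FN1, the ligand of α5β1, stood at 918, 964 and 942 CPM against 1053, 1075 and 1006 CPM, and did not pass the test (log2 fold change 0.15, adjusted p = 0.086, and 0.011 without TAZ-siRNA replicate 3). DESeq2 gave FN1 an adjusted p of 0.019, whereas with the GC and length correction its change was 0.02 (adjusted p = 0.76). VTN, the plasma RGD ligand, and the fibrinogen genes FGA and FGB had 0 counts in all libraries. LTBP1, which tethers latent TGF-β to the matrix, rose by 0.42 on the log2 scale (adjusted p = 0.00067). The secreted ligands CCN1, CCN2 and THBS1, which bind αV integrins among others, fell, and their groups did not overlap. CCN1 stood at 1546, 1388 and 1315 CPM against 528, 616 and 439.8 CPM (log2 fold change -1.42, adjusted p = 0.0001). CCN2 stood at 889.9, 795 and 715 CPM against 420.3, 391 and 375 CPM (log2 fold change -1.02, adjusted p = 7e-05), and THBS1 fell by 0.75 on the log2 scale (adjusted p = 0.0002). CCN1 and CCN2 are well known targets of YAP and TAZ.

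ICAM1 and ICAM2, ligands of leukocyte integrins, fell by 0.35 and 0.40 on the log2 scale (adjusted p = 0.0026 and 0.023). ICAM2 lost its call without control-siRNA replicate 2 or 3 or TAZ-siRNA replicate 1 or 2 (adjusted p = 0.07 to 0.094). The remaining ligand called lower was VCAM1, named after its values were seen, at 0.345, 0.209 and 0.288 CPM with control-siRNA and at 0, 0.0406 and 0 CPM with TAZ-siRNA, while its receptor subunit ITGA4 had 0 counts.

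Among 25 basement membrane components and non-integrin laminin partners, 21 passed the filter, of which 7 rose and 2 fell (42.9% called, against 22.1% of all genes tested, median log2 fold change 0.17). The same limit on the choice of genes holds for this list. DAG1, which encodes the laminin receptor dystroglycan, stood at 155, 144 and 144 CPM with control-siRNA and at 211.2, 232 and 173 CPM with TAZ-siRNA. All TAZ-siRNA libraries were above the controls (log2 fold change 0.48, adjusted p = 0.0063). COL18A1 (0.65), SDC1 (0.38), COL4A2 (0.36) and BMP1 (0.30), a protease that trims laminin-332, also rose on the log2 scale, with adjusted p = 0.00011, 0.0047, 0.0068 and 0.0052. AGRN, agrin, rose by 0.30 (adjusted p = 0.023, and 0.059 to 0.089 with any 1 control-siRNA library, TAZ-siRNA replicate 1 or TAZ-siRNA replicate 2 left out). With the GC and length correction the rise of AGRN was 0.14 (adjusted p = 0.046), and limma on FPKM did not call it (adjusted p = 0.065 to 0.071). RPSA, the laminin-binding ribosomal protein, fell by 0.24 (adjusted p = 0.037), and of the 6 fits without 1 library it was called in that without TAZ-siRNA replicate 3, with adjusted p = 0.061 to 0.16 in the others. DST, which links α6β4 to keratin, fell by 0.29 (adjusted p = 0.036), with overlapping groups and adjusted p = 0.082 to 0.15 without control-siRNA replicate 1 or 2 or TAZ-siRNA replicate 2.

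COL4A1, the partner chain of COL4A2 in type IV collagen, changed by 0.20 on the log2 scale (adjusted p = 0.075), HSPG2, perlecan, by 0.27 (adjusted p = 0.24) and PLEC, plectin, by 0.24 (adjusted p = 0.26). These 3 did not pass the test with all libraries, and their adjusted p was 0.00032, 9.1e-05 and 0.0017 without TAZ-siRNA replicate 3. BCAM, the Lutheran receptor for LAMA5, and CD151, the tetraspanin of α3β1 and α6β1, had log2 fold changes of 0.07 (adjusted p = 0.36) and 0.11 (adjusted p = 0.21). With the GC and length correction the change of CD151 was 0.17 and was called (adjusted p = 0.018), and those of COL4A1, HSPG2 and PLEC were 0.08, 0.15 and 0.09. NID1, the laminin-nidogen crosslinker, had at most 0.0643 CPM and was not tested.

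Of 44 genes of the cytoplasmic adhesion machinery, 42 passed the filter, of which 7 rose and 5 fell (28.6% called, against 22.1% of all genes tested, median log2 fold change 0.05). This list too was chosen with earlier results known. Several core adhesion genes had small log2 fold changes that did not pass the test. Among them were FERMT2, kindlin-2, at -0.09 (adjusted p = 0.28), PXN, paxillin, at 0.08 (adjusted p = 0.28) and ILK at 0.02 (adjusted p = 0.8). TLN1, talin, changed by -0.06 (adjusted p = 0.53, but -0.19 and 0.007 with the GC and length correction). PTK2, focal adhesion kinase, changed by 0.16 (adjusted p = 0.058, and 0.0029 without TAZ-siRNA replicate 3, but a change of 0.09 with the GC and length correction). VCL, vinculin, rose by 0.27 on the log2 scale (adjusted p = 0.012, and 0.072, 0.06 and 0.054 without control-siRNA replicate 2 or 3 or TAZ-siRNA replicate 1). FERMT1, the epithelial kindlin, stood at 30.3, 28.7 and 29.3 CPM against 43.0, 41.4 and 35.0 CPM (log2 fold change 0.44, adjusted p = 0.0031).

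PTK2B (0.73), TNS4 (0.56) and TNS1 (0.53), a kinase related to PTK2 and a pair of tensins, had the largest rises on the log2 scale among the genes called (adjusted p = 0.0016, 0.0077 and 0.015), and TNS1 lost its call without control-siRNA replicate 1 or 3 or TAZ-siRNA replicate 1 or 2 (adjusted p = 0.053 to 0.068). GIT2, an adaptor, rose by 0.27 (adjusted p = 0.019, and 0.058 to 0.082 in all refits but that without TAZ-siRNA replicate 3). The largest falls among the genes called were those of NEDD9, a scaffold of focal adhesions, at -0.72 (adjusted p = 0.00067), the actin crosslinker FLNC, at -0.50 (adjusted p = 0.00018), and LIMS2, of the complex with ILK, at -0.38 (adjusted p = 0.0078). PARVA, of the same complex, fell by 0.20 (adjusted p = 0.01, and 0.065 without control-siRNA replicate 2).

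**Figure D5:**
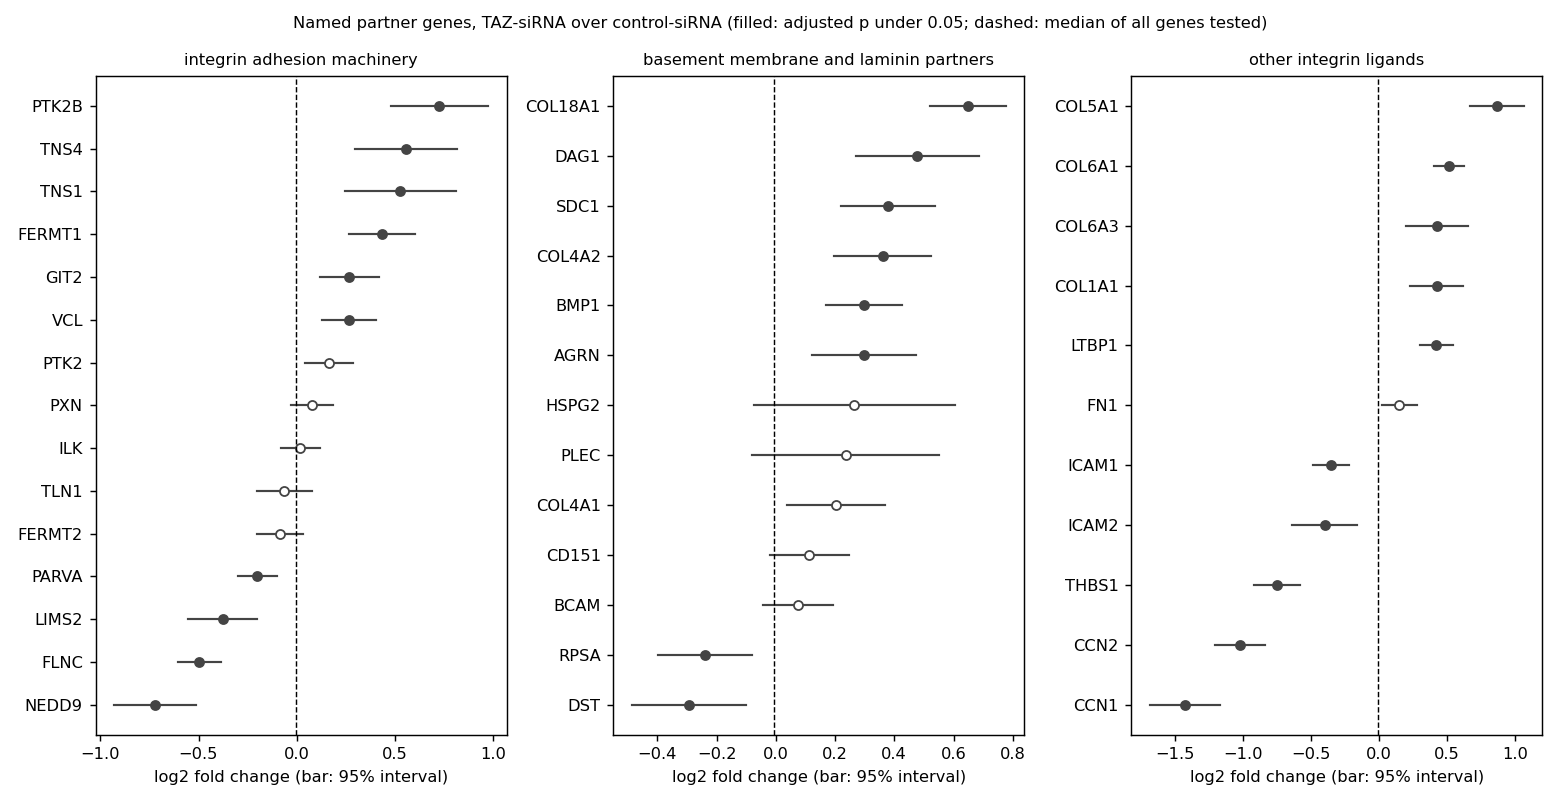
Log2 fold change, TAZ-siRNA over control-siRNA, with 95% interval (bar) of the named adhesion, basement membrane and ligand genes. Filled points passed an adjusted p of 0.05 and the dashed line is the median of all genes tested (-0.01). The collagen genes COL5A1 and COL18A1 lie farthest to the right in their panels and the secreted ligands CCN1, CCN2 and THBS1 farthest to the left.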

How the data were processed

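RNA was sequenced from MDA-MB-231 cells in 6 libraries, 3 per group (TruSeq Stranded mRNA, paired ends of 100 bases). The authors aligned trimmed reads to GRCh38 by HISAT2, and StringTie assigned them to RefSeq genes. The tables as deposited give every gene and transcript a TPM, an FPKM and an estimated count. The estimated counts are whole numbers, and whether counting used strand is not given in the sources used here. Counts of genes that overlap may hold reads of each other. Replicate numbers follow the columns, and sample titles number the same replicates differently. Replicates are separate cell preparations.

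Counts were tested in edgeR 4.0.16 (R 4.3.3) with TMM factors, filterByExpr with a minimum count of 10, and a robust quasi-likelihood fit over 16966 genes, with Benjamini-Hochberg adjustment. The biological coefficient of variation was 8.04%. On simulated counts with 200 changed genes, edgeR made 198 calls among 16678 genes, of which 19 were false. CPM uses TMM-scaled library sizes. Exact permutation tests were two-sided. Intervals are 95%, from the fit's standard error. Alternatives used DESeq2 1.42.0, limma 3.58.1 on log2 FPKM with a pseudocount of 1 or 0.1, other filters and factors, a GC and length correction, a replicate block and each library left out. Genes named were the tested members, and from each partner list the 5 largest called rises and falls among genes averaging 1 CPM or more, plus a set of core genes. A few genes that these rules take in are counted but not reported here by name. The members and lists were chosen with earlier results of these data known. Promoters came from RefSeq (GRCh38.p14).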

Additional observations from a re-analysis of the deposited data

How the results depend on the processing

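Of the 14 integrin and laminin genes called, 12 as higher and 2 as lower, 14 remained called under upper-quartile factors, without a filter beyond 1 count, with at least 10 counts in every library and with DESeq2, which called 16. With a GC and length correction 12 were called, 9 as higher and 3 as lower, with LAMB3 among them and ITGAV and LAMB2 lost. By limma on FPKM 10 were called, with 1 lower gene. The GC and length correction made the change of all 12 risen genes smaller. It moved the log2 fold changes of ITGAV to 0.13 (adjusted p = 0.08), ITGB4 to 0.22 and LAMA5 to 0.28. ITGA2 moved to 0.40, ITGA3 to 0.19, ITGA5 to 0.46, ITGA6 to 0.32 and LAMC1 to 0.27. Among the partner genes, COL4A2 moved to 0.24, VCL to 0.16, GIT2 to 0.18, RPSA to -0.14 and PARVA to -0.33. By limma ITGAV, LAMA5, COL6A3, DST, GIT2, LIMS2, PARVA and TNS1 were among the genes no longer called, and with a pseudocount of 1 the changes of the scarce ITGB8 and LAMA1 were 0.18 and -0.22. At an adjusted p under 0.01, 8 were called (7 higher, 1 lower), as were 6 of the adhesion machinery, 5 of the basement membrane list and 1720 of all genes. limma called 7 of the adhesion machinery, against 12. Leaving out each library gave 8 to 17 genes called, 7 to 14 higher and 1 to 3 lower, 7 to 17 of the adhesion machinery, 5 to 13 of the basement membrane list, and 1937 to 5928 of all genes, the most without TAZ-siRNA replicate 3. ITGA2, ITGA5, ITGA6, ITGB5, ITGB8, LAMA1 and LAMC1 stayed called in all 6 such fits. Non-overlapping transcript shares numbered 9 to 12 with a library left out, where fewer libraries can overlap, and expressed laminin trimers 4 by FPKM. The sign changed for ITGA10 (log2 fold change -0.34 to 0.094 over the libraries left out, positive without replicate 3 of either group), ITGAX (-0.10 to 0.43, negative without replicate 2 of either group) and ILK (-0.0008 to 0.041, negative without TAZ-siRNA replicate 2), none of them called. The cause of these differences was not tested.

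A replicate block gave 17 called genes, and 5122 of all genes (30.2%) against 3749 (22.1%). Same-numbered libraries correlated in their deviations from the group means at 0.267, 0.019 and 0.418, and TAZ-siRNA replicate 2 correlated best with control-siRNA replicate 1 (0.206), so the numbers were not taken to pair the libraries. Scarce genes such as ITGA9 and LAMC3 had intervals too wide to show changes of the size seen in the abundant genes.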
